A study of Mus musculus with 16 samples.

Results

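The transcriptome of the dentate gyrus was compared between mice lacking p16Ink4a and wild-type mice, both kept without a running wheel, in 8 of the 16 libraries of the series, chosen by their genotype and treatment labels. The 4 p16 KO CTL libraries came from p16Ink4a -/- mice and the 4 p16 WT CTL libraries from p16Ink4a +/+ mice, all of them male, 1 year old, on a C57BL/6 background and housed as sedentary controls. Each library held the dentate gyri of 2 pooled animals, 8 animals per group, so that the spread between libraries is a spread between pools. The null allele was made in the FVB strain, spares p19Arf, and was backcrossed to C57BL/6, and the loss affects every cell of the body and not only the dentate gyrus. The 8 libraries of running mice (p16 WT RUN and p16 KO RUN, 12 days of voluntary running) were used only to set the knockout effect beside that of an independent group of libraries. Levels are given in TPM (a share of all transcripts, corrected for gene length), and log2 fold changes are those of p16 KO CTL minus p16 WT CTL.

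p16Ink4a binds CDK4 and CDK6 and keeps them from pairing with D cyclins, so that the Rb proteins stay active and hold back E2F, the transcription factor that switches on the genes of DNA replication. Its level rises with age and in senescent cells. In the dentate gyrus, radial glia-like stem cells that are mostly at rest give rise to new granule neurons. The study describes p16Ink4a as keeping these cells, in aged mice, from being activated by a stimulus such as running. By the same account, its loss alone did not activate them.

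Cdkn2a, the gene on the minus strand of chromosome 4 that encodes p16Ink4a, has 2 transcription starts, the upstream one of which makes p19Arf. Both windows are printed because the deposited tables give 1 value for the whole gene, so that p16Ink4a and p19Arf transcripts could not be told apart. The sequences are those of RefSeq on GRCm38.p6 (the assembly behind mm10) and run 5′ to 3′ from 250 bases before each start to 50 bases after it. The motifs of the E2F type TTTGGCGC, TTTCCCGC, TTTCGCGC and TTTGCCGC were searched on both strands, and capitals mark the 1 match, in the p19Arf window. At least 1 of them was held by 2.6% of all 27025 genes with a RefSeq window.
Cdkn2a, p19Arf start, chr4:89294570-89294869, minus strand: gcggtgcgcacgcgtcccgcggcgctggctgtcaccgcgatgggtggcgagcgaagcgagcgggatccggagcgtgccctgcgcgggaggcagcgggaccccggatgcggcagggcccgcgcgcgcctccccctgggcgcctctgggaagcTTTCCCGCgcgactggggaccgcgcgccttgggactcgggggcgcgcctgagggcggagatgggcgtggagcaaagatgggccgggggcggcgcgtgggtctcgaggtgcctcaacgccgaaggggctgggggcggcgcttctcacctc
Cdkn2a, p16Ink4a start, chr4:89282143-89282442, minus strand: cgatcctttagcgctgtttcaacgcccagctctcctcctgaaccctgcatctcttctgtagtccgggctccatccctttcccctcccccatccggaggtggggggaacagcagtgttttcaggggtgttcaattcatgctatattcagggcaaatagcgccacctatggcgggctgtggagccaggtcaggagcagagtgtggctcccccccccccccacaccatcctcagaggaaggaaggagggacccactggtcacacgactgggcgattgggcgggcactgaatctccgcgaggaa

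Cdkn2a was listed at 0, 0.586, 0 and 0.0843 TPM in p16 WT CTL replicates 1 to 4 and at 0, 0, 0.344 and 0.175 TPM in p16 KO CTL replicates 5 to 8. The gene was near 0 in both groups, the groups overlapped, and the level of the targeted gene therefore does not check the genotype labels. Cdkn2b, which encodes the neighbouring CDK4/6 inhibitor p15Ink4b, was at 1.113, 1.116, 1.122 and 0.855 TPM in p16 WT CTL and at 1.53, 0.706, 0.944 and 0.982 TPM in p16 KO CTL, again with overlapping groups. Its log2 fold change was 0.00 ± 0.25 (SE, limma).

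The total length of aligned fragments, taken from the ratio of coverage to FPKM, was 7.62 to 16.82 gigabases in p16 WT CTL and 7.78 to 14.6 gigabases in p16 KO CTL, with replicates 2 and 7 the deepest. Between 17334 and 18082 gene names had a value above 0 in each of the 8 libraries. Across genes, log2 values correlated with a Pearson r of 0.973 to 0.981 within p16 WT CTL, 0.972 to 0.985 within p16 KO CTL and 0.963 to 0.983 between the groups, where genes are not independent replicates. Some libraries stood apart. Replicate 2 of p16 WT CTL and p16 KO CTL replicates 6 and 7 were low in long noncoding RNAs that stay in the nucleus: Malat1 was at 202, 123 and 67.1 TPM in these libraries and at 359 to 701 TPM in the other 5, and Meg3 at 258, 107 and 91.3 TPM against 511 to 695 TPM. The first principal component of the 8 libraries, which held 36% of the variance, placed these same 3 libraries on one side (15.06 to 60.92) and the other 5 on the other (-38.74 to -6.77). Since 2 of the 3 are knockouts, the lists and the genes named below were also fitted in the remaining 5 libraries (p16 WT CTL replicates 1, 3 and 4 and p16 KO CTL replicates 5 and 8), and calls of named genes that were lost there are given beside them. With fewer libraries a call can be lost although the log2 fold change is unchanged. Markers of CA1 pyramidal neurons, which border the dentate gyrus, summed to 354 TPM in p16 KO CTL replicate 8 and to 104 to 153 TPM in the other 7 libraries. Markers of choroid plexus and ependyma summed to 250.1 TPM in p16 KO CTL replicate 7 and to 50.6 to 82.9 TPM in the others.

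**Figure D1:**
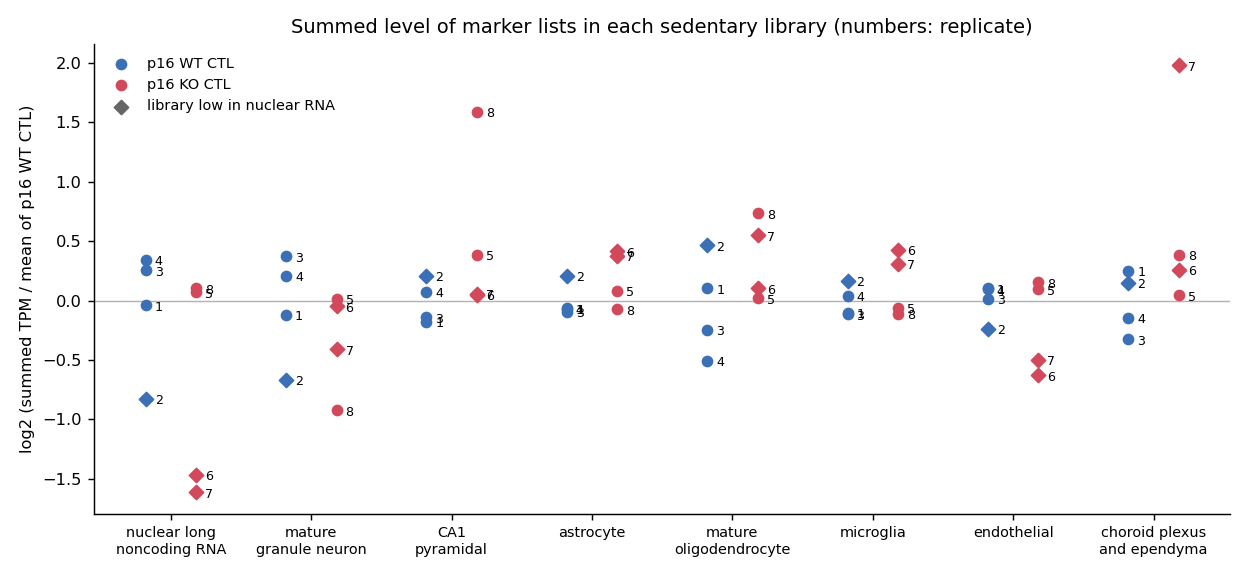
Summed TPM of 8 marker lists in each sedentary library, as log2 of the ratio to the mean of p16 WT CTL, with the replicate number beside each point and diamonds for the 3 libraries low in nuclear RNA. Replicates 2, 6 and 7 lie lowest for nuclear long noncoding RNA, replicate 8 lies highest for CA1 markers at 354 TPM and replicate 7 highest for choroid plexus and ependyma at 250.1 TPM.

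The dissections held the defining cells of the dentate gyrus. Prox1, the transcription factor of granule neurons, was at 72.5 to 154 TPM in p16 WT CTL and 58.1 to 131 TPM in p16 KO CTL, and the 20 granule neuron markers summed to 1554 to 3200 TPM and 1300 to 2498 TPM, respectively. These are bulk samples, so fewer cells of a type and less RNA per cell could not be told apart.

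Of the 17317 genes tested with limma, 1151 (6.65%) had an unadjusted p under 0.05, the threshold of the study, with 529 higher (3.05%) and 622 lower (3.59%) in p16 KO CTL. The genes with such a p are named as called, and the exact permutation p of a single gene is two-sided and uses the same scaled log2 values as limma, while the levels printed are TPM as deposited, so that groups which do not overlap in TPM can have a p above 0.0286. None reached an adjusted p under 0.05 (190 had an unadjusted p under 0.01), and the smallest adjusted p was 0.624. The 4 libraries of one group lay wholly above or below those of the other in 487 genes (2.81%), compared in TPM as deposited. For 4 against 4 libraries 2.86% would do so by chance, so a lack of overlap alone does not set a gene apart. The direction of the calls depended on the scaling of the libraries: with TPM as deposited 336 genes were higher and 777 lower, and the higher ones made up 30.2% of the calls instead of 46%. With the 5 libraries of usual nuclear RNA content, 1155 genes (6.67%) were called, of which 228 belonged to the 529 and 276 to the 622 above in the same direction. All 529 and all 622 kept their sign in those 5 libraries, which are part of the 8 that chose them.

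The product of the knocked-out gene acts at the start of the chain from D cyclins to DNA replication and mitosis. The share of genes called was 14.3% in the list of CDK inhibitors, 5.88% in that of D cyclins, CDK4/6, Rb and E2F, 6.9% in that of S phase and 5.26% in that of mitosis, beside 6.65% of all genes tested. Of the 7 Ink4 and Cip/Kip inhibitors of CDKs, 1 was higher, none was lower, and their median log2 fold change was 0.01, against -0.01 over all genes tested. The one called was Cdkn2d (p19Ink4d), the most abundant of the 7, at 68.9, 82.4, 70.2 and 76.6 TPM in p16 WT CTL and 79.7, 80.9, 91.3 and 84.3 TPM in p16 KO CTL (log2 fold change 0.23 ± 0.10, SE, exact permutation p = 0.0857). Its groups overlapped in replicate 2. Cdkn1b (p27Kip1) and Cdkn1a (p21Cip1), which stop CDK2 complexes, had log2 fold changes of 0.03 ± 0.06 and -0.18 ± 0.19.

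Among 17 tested D cyclins, CDK4/6, Rb and E2F genes, 1 was lower and none higher, with a median of -0.04. It was Rbl1, the Rb family member p107, at 1.14, 0.627, 1.01 and 1.25 TPM in p16 WT CTL and 0.709, 0.459, 0.562 and 0.666 TPM in p16 KO CTL (-0.59 ± 0.25 on the log2 scale, exact permutation p = 0.0857). Replicate 2 of p16 WT CTL lay among the knockouts, and Rbl1 was not called in the 5 libraries of usual nuclear RNA content (-0.61). The targets of p16Ink4a and their partner differed by less than their errors: Cdk4 by -0.03 ± 0.10 and Ccnd2, the most abundant member, by 0.04 ± 0.10 on the log2 scale.

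Of 29 genes of DNA replication and S phase, none was higher and 2 were lower, and the median log2 fold change was -0.16. Mcm5, a subunit of the replicative helicase, was at 5.25, 4.72, 4.74 and 6.54 TPM in p16 WT CTL and 3.43, 3.61, 3.17 and 4.07 TPM in p16 KO CTL, so that every knockout library lay below every wild-type library. The log2 fold change was -0.49 ± 0.15 (SE, limma adjusted p = 0.624, exact permutation p = 0.0286). Chaf1a, a subunit of the factor that loads histones on new DNA, was at 5.98, 5.39, 5.88 and 6.69 TPM in p16 WT CTL and 5.56, 3.92, 3.63 and 3.96 TPM in p16 KO CTL (-0.44 ± 0.14, exact permutation p = 0.0286). In the 5 libraries of usual nuclear RNA content neither was called at the unadjusted threshold, with log2 fold changes of -0.50 and -0.35. With the level of nuclear long noncoding RNAs as a covariate, 2 of the 29 genes were called, both lower, and none in the lists of CDK inhibitors and of D cyclins. Pcna, the replication clamp and the most abundant of the 29, was at 83.8 to 85.8 TPM and 76.5 to 88.1 TPM (log2 fold change 0.02 ± 0.07).

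The promoter of Mcm5 is printed because it holds sites of the E2F type next to the strongest call of this list. The motifs searched were those of the Cdkn2a windows, and capitals mark the matches, 2 of which overlap here. Of the 23 tested S phase genes with a RefSeq window, 10 held at least 1 of these motifs, against 2.6% of all genes with a window. The median log2 fold change was -0.17 in the 10 and -0.18 in the other 13, and Mcm5 was the one called gene among the 10.
Mcm5, GRCm38.p6, chr8:75109259-75109558, plus strand: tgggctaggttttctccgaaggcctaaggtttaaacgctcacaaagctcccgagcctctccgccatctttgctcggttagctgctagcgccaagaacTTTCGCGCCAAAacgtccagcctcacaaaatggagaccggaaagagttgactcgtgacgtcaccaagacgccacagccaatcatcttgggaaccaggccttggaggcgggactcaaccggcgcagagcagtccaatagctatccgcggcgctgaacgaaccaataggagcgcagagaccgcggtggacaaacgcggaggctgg

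Of 19 tested genes of mitosis, 1 was higher and none lower, and their median was -0.20. The one called was Aurka, a kinase of the spindle poles, at 1.88, 2.06, 2.41 and 1.84 TPM in p16 WT CTL and 2.56, 2.46, 2.39 and 3.00 TPM in p16 KO CTL (0.39 ± 0.16, exact permutation p = 0.0286), and it was not called in the 5 libraries of usual nuclear RNA content (0.47). With the level of nuclear long noncoding RNAs as a covariate, 1 of the 19 genes was called, on the higher side. Mki67, the proliferation marker Ki-67, was at 1.47, 0.527, 1.44 and 1.36 TPM in p16 WT CTL and at 1.01, 0.630, 0.491 and 0.818 TPM in p16 KO CTL, and its log2 fold change of -0.53 ± 0.33 was not called (exact permutation p = 0.2). These genes were near the limit of what the libraries measured, as the whole list summed to 15.8 to 26.8 TPM in p16 WT CTL and 13.9 to 21.97 TPM in p16 KO CTL, lowest in the 3 libraries low in nuclear RNA. In running mice, 8 of the 19 genes were higher in the knockout and none lower, with a median of 0.50, where 3.87% of all genes were called and 2.1% were higher. The interaction of genotype and running had an unadjusted p under 0.05 in 7 of the 19 genes, where this was so in 5.47% of all genes, and 0 genes had an adjusted p under 0.05 for it. For Top2a, which untangles DNA in dividing cells, the log2 fold change was 0.03 ± 0.35 in sedentary and 1.59 in running mice, and the interaction, 1.56, was among the 7.

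Among 19 genes of p53 and its targets, 1 was higher and 2 lower, with a median of 0.06. Calls were 15.8% of this list and 8.7% of the tested secretory genes below, beside 6.65% of all genes tested. Btg2, an antiproliferative gene that is also an immediate early gene, was at 27.2, 17.6, 27.8 and 25.5 TPM in p16 WT CTL and 19.3, 20.5, 15.0 and 14.2 TPM in p16 KO CTL (-0.44 ± 0.16, exact permutation p = 0.0857). Perp, a membrane protein of p53-induced death, was the higher one (0.54 ± 0.21, exact permutation p = 0.0571) and Fas, a death receptor, the other lower one (-0.74 ± 0.29, exact permutation p = 0.0857). None of the 3 separated the groups, since at least 1 library of one group lay within the range of the other, and Perp (0.63) and Fas (-0.45) were not called in the 5 libraries of usual nuclear RNA content. Of 29 genes of the secretory program of senescent cells, 23 were tested, 1 was higher and 1 lower. The higher was Igfbp2, a binding protein of insulin-like growth factors, at 29.4, 38.4, 27.9 and 37.5 TPM in p16 WT CTL and 41.5, 62.6, 55.1 and 36.7 TPM in p16 KO CTL (0.60 ± 0.20, exact permutation p = 0.0571). The lower was the adhesion molecule Icam1 (-0.56 ± 0.25, exact permutation p = 0.0857). Il6, Tnf, Cxcl2, Ccl8, Mmp3 and Mmp12 had a mean under 0.1 TPM over the 16 libraries and were not tested.

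Outside the lists, 24 genes were named by rank: the 12 higher and 12 lower genes of smallest p with a mean of at least 1 TPM over the 8 libraries and no overlap between the groups. They were thus chosen on this contrast, and their p-values describe the choice. For each of the 24 the adjusted p was 0.624 and the two-sided exact permutation p was 0.0286, the smallest that 4 against 4 libraries allow. All 24 kept an unadjusted p under 0.05 in each of the 8 fits that left out 1 library, and 23 of 24 did in the 5 libraries of usual nuclear RNA content, the exception being Rec8, just above the threshold. Within the 3 libraries low in nuclear RNA, 2 knockouts against 1 wild type and hence without a test, all 24 had the same direction. The rule of no overlap over the 8 libraries left little room for another outcome in these checks, so nothing was read from them.

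Some of the higher genes act in glia. Ntsr2, the neurotensin receptor of astrocytes, was at 140, 154, 150 and 152 TPM in p16 WT CTL and 184, 192, 210 and 178 TPM in p16 KO CTL, a log2 fold change of 0.42 ± 0.09 (SE). Lpl, the lipoprotein lipase made by microglia, astrocytes and some neurons, was at 67.1, 80.7, 63.6 and 52.5 TPM in p16 WT CTL and 104, 99.9, 129 and 96.7 TPM in p16 KO CTL (0.77 ± 0.16). Slc16a1, the monocarboxylate transporter MCT1 of glia and endothelium, was at 16.8, 20.4, 19.6 and 21.4 TPM in p16 WT CTL and 30.3, 27.3, 22.1 and 26.4 TPM in p16 KO CTL (0.49 ± 0.10). In Slc16a1 the groups were close, with 21.4 TPM in p16 WT CTL replicate 4 against 22.1 TPM in p16 KO CTL replicate 7. Cd59a, the membrane inhibitor of the complement attack complex, had the largest difference among the 12 (1.07 ± 0.21), with 5.93, 3.44, 5.94 and 5.61 TPM in p16 WT CTL and 9.45, 8.87, 14.2 and 9.70 TPM in p16 KO CTL.

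Several others work in the secretory pathway and at the cell surface. Rrbp1, the ribosome-binding protein of the endoplasmic reticulum, was at 29.5, 31.1, 30.6 and 32.7 TPM in p16 WT CTL and 39.5, 38.5, 36.6 and 34.96 TPM in p16 KO CTL (0.33 ± 0.07). Magt1, a subunit of the oligosaccharyltransferase that also carries magnesium, was at 7.64, 8.13, 9.32 and 7.75 TPM in p16 WT CTL and 10.9, 13.7, 12.0 and 10.3 TPM in p16 KO CTL (0.57 ± 0.13). Tmed5, a cargo receptor between endoplasmic reticulum and Golgi, was at 19.54 to 22.01 TPM and 25.5 to 29.3 TPM (0.40 ± 0.09). The wild-type libraries of these genes lay within narrow ranges, and the knockout libraries began above them. The protocadherin Pcdh9 was at 53.01, 50.7, 62.2 and 62.9 TPM in p16 WT CTL and 70.2, 65.4, 69.5 and 66.4 TPM in p16 KO CTL (0.31 ± 0.07), and Egfl6, a secreted protein with EGF-like repeats, was at 1.93 to 2.28 TPM and 3.21 to 5.42 TPM (0.88 ± 0.20). Dynll2, a light chain of dynein and myosin V and the most abundant of the 12, was at 524, 563, 618 and 501 TPM in p16 WT CTL and 686, 650.0, 671 and 744 TPM in p16 KO CTL (0.38 ± 0.09).

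A pair of genes of the methionine salvage pathway, which recycles sulfur from polyamine synthesis, lay on opposite sides. Adi1, the dioxygenase near its end, was at 27.1, 30.1, 35.4 and 33.7 TPM in p16 WT CTL and 47.7, 49.8, 51.8 and 38.6 TPM in p16 KO CTL (0.63 ± 0.12). Mri1, the isomerase near its beginning, was at 18.1, 12.3, 15.2 and 13.9 TPM in p16 WT CTL and 7.79, 6.51, 6.30 and 11.4 TPM in p16 KO CTL (-0.86 ± 0.19). In both genes p16 KO CTL replicate 8 was the knockout nearest to the wild type.

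Among the lower genes, Hpdl, a mitochondrial dioxygenase-like enzyme, had the smallest p of all 24, with 9.28, 7.23, 9.17 and 9.23 TPM in p16 WT CTL and 4.80, 4.72, 5.08 and 5.50 TPM in p16 KO CTL (-0.72 ± 0.12). Tpd52l1, of the tumor protein D52 family of vesicle proteins, was at 62.1, 66.5, 61.1 and 65.1 TPM in p16 WT CTL and 38.0, 42.3, 27.0 and 42.0 TPM in p16 KO CTL (-0.73 ± 0.13). In Hpdl p16 WT CTL replicate 2 stood below the other 3 wild-type libraries, while those of Tpd52l1 were close together, and in both genes every knockout library lay lower. Upk1b, a tetraspanin known from urothelium, was at 2.99 to 3.83 TPM and 1.13 to 1.82 TPM (-1.07 ± 0.20). Hyi, a putative hydroxypyruvate isomerase, was at 8.49 to 11.3 TPM and 3.76 to 7.18 TPM (-0.90 ± 0.20). Rpusd3, a pseudouridine synthase-like protein of mitochondria, was at 18.7 to 25.5 TPM and 13.9 to 18.6 TPM, so that the groups nearly touched (-0.45 ± 0.10).

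Rec8, the cohesin subunit of meiosis, was at 1.53, 2.19, 1.45 and 2.21 TPM in p16 WT CTL and at 0.0354, 0, 0 and 1.02 TPM in p16 KO CTL. It was near or at 0 in 3 of the 4 knockout libraries, so its fitted log2 fold change of -3.26 ± 0.74 depends on the pseudocount of 0.1 TPM. Gm10037, a predicted gene, was at 5.42, 9.10, 8.24 and 8.96 TPM in p16 WT CTL and 0.956, 1.35, 0.913 and 4.48 TPM in p16 KO CTL (-2.21 ± 0.45). In both genes p16 KO CTL replicate 8 again stood between the groups. Without it their adjusted p values were 0.00473 (Rec8) and 0.0139 (Gm10037) by limma. That fit leaves out the knockout library nearest to the wild type in genes chosen on these values, so nothing was read from it. The remaining lower genes were Snord89, a small nucleolar RNA (4.01 to 7.81 TPM and 2.04 to 3.21 TPM), the predicted genes Gm20063 (3.94 to 6.37 TPM and 2.01 to 3.52 TPM) and 4833422C13Rik (13.5 to 15.5 TPM and 5.37 to 10.2 TPM), and 4933409K07Rik (11.6 to 15.0 TPM and 4.63 to 8.95 TPM). The last spans a block of near-identical gene copies on chromosome 4, and 4833422C13Rik lies across Acot12 and Ssbp2, so reads may have been shared with other genes there.

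**Figure D2:**
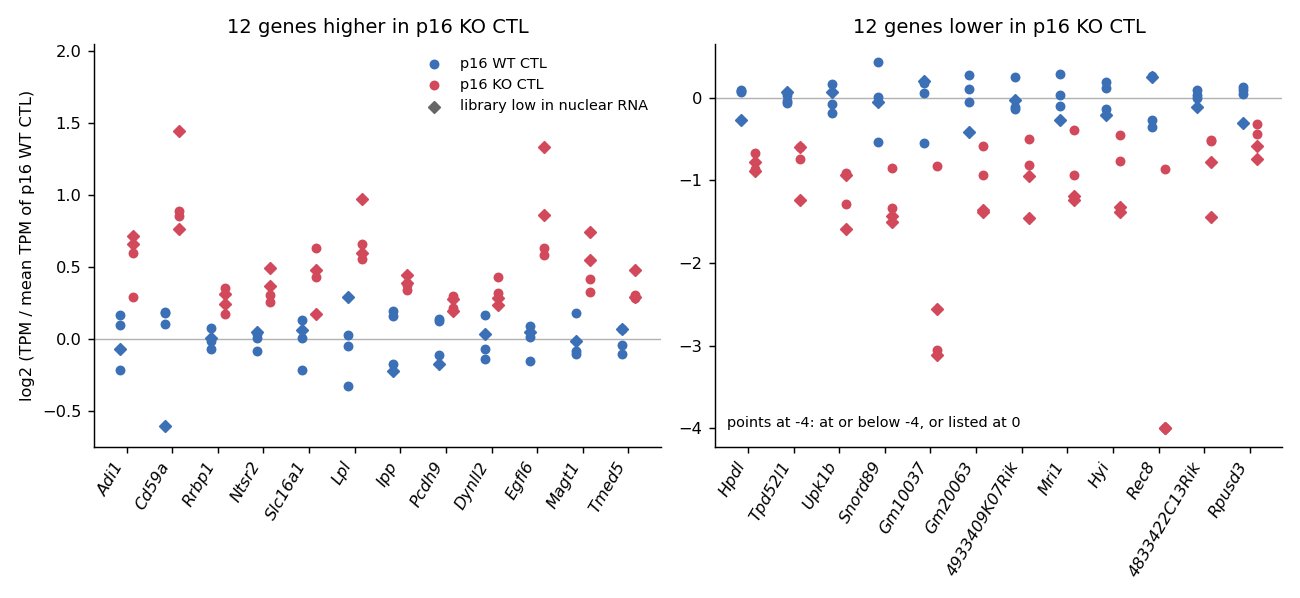
TPM of the 24 genes named by rank in each of the 8 sedentary libraries, as log2 of the ratio to the mean of p16 WT CTL, with blue for p16 WT CTL, red for p16 KO CTL and diamonds for the 3 libraries low in nuclear RNA. The groups do not overlap in any of the 24 genes, as the rule required, and p16 KO CTL replicate 8 lies nearest to the wild type for Rec8 (1.02 TPM) and Gm10037 (4.48 TPM).

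The called markers of glia and stem cells were nearly all higher in p16 KO CTL, the exception being the microglial Fcrls. Calls were 33.3% of the tested radial glia markers, 30% of astrocyte, 35.7% of precursor and 30% of microglia markers. For mature oligodendrocytes they were 5.56%. Of all genes tested, 6.65% were called and 3.05% were higher. Of 15 tested markers of radial glia and neural stem cells, 5 were higher and none lower, with a median log2 fold change of 0.23. Sox9, which holds the stem cell and astrocyte fate, was at 29.2, 34.3, 29.6 and 27.3 TPM in p16 WT CTL and 33.2, 39.3, 35.6 and 33.3 TPM in p16 KO CTL (0.29 ± 0.11, exact permutation p = 0.0857). Ednrb, the endothelin B receptor, was at 29.7, 40.4, 26.8 and 27.0 TPM and 38.2, 42.1, 43.4 and 34.2 TPM (0.42 ± 0.16, exact permutation p = 0.0857). Fabp7, the brain lipid-binding protein, was at 73.6, 105.7, 65.0 and 70.5 TPM and 98.1, 160.4, 101.7 and 88.4 TPM (0.56 ± 0.23, exact permutation p = 0.1143). In each of the 3 genes p16 WT CTL replicate 2 was the highest wild-type library and lay within the knockout range. Sox2, the transcription factor of stem cells and glia, differed by 0.34 ± 0.15 (exact permutation p = 0.1143), as did Hopx, a marker of quiescent stem cells, by 0.46 ± 0.20 (exact permutation p = 0.1143), with 113 to 175 TPM in p16 WT CTL and 127 to 243 TPM in p16 KO CTL.

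Of 20 astrocyte markers, 6 were higher, none was lower and 19 had a positive log2 fold change, with a median of 0.26. After Ntsr2 and Sox9, the called ones were S100b (0.46 ± 0.19, exact permutation p = 0.1143), Gfap, Cldn10 and Mlc1. Gfap, the intermediate filament of astrocytes, was at 416, 542, 462 and 451 TPM in p16 WT CTL and 610, 747, 702 and 428 TPM in p16 KO CTL (0.45 ± 0.19, exact permutation p = 0.0857), with replicate 8 among the wild types, and lost its call in the 5 libraries of usual nuclear RNA content (0.24). The most abundant marker, the glutamate transporter Slc1a2, was at 968 to 1278 TPM and 1026 to 1471 TPM (0.26 ± 0.16, exact permutation p = 0.2).

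Of 14 markers of oligodendrocyte precursors, 5 were higher and none lower, with a median of 0.24. Olig2, the transcription factor of the lineage, was at 19.3, 21.2, 21.0 and 21.7 TPM in p16 WT CTL and 22.1, 23.9, 24.6 and 28.0 TPM in p16 KO CTL (0.30 ± 0.10, exact permutation p = 0.0571). The sialidase Neu4 was at 4.03, 4.76, 4.73 and 3.23 TPM and 5.91, 5.25, 5.54 and 5.33 TPM (0.46 ± 0.16, exact permutation p = 0.0286). Both separated the groups, whereas Gpr17, a receptor of precursors about to differentiate, with 13.8 to 24.3 TPM and 22.3 to 30.4 TPM, and Sox10 did not. Olig2, Gpr17 and Sox10 were no longer called in the 5 libraries of usual nuclear RNA content (0.31, 0.52 and 0.38), nor was Cnp of the next list (0.46). In the 18 markers of mature oligodendrocytes every log2 fold change was positive, with a median of 0.30, but only Cnp was called (0.41 ± 0.17, exact permutation p = 0.1429). Mbp, the myelin basic protein and the most abundant of them, was at 965, 1360, 731 and 589 TPM in p16 WT CTL and 917, 1018, 1502 and 1540 TPM in p16 KO CTL (0.54 ± 0.30, exact permutation p = 0.1714), a spread within each group as wide as the difference.

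Of 20 microglia markers, 5 were higher, 1 was lower and 19 were positive, with a median of 0.27. Sall1, the transcription factor that keeps microglia at rest, was at 12.0, 14.3, 11.8 and 13.3 TPM in p16 WT CTL and 16.3, 15.9, 14.9 and 15.1 TPM in p16 KO CTL (0.33 ± 0.10, exact permutation p = 0.0286). Tmem119, a microglial membrane protein, was at 22.9, 26.2, 27.5 and 25.1 TPM and 30.7, 36.5, 37.5 and 26.8 TPM (0.42 ± 0.13, exact permutation p = 0.0286). Sall1 separated the groups and Tmem119 did not, by p16 KO CTL replicate 8. The lower one was Fcrls, an Fc receptor-like gene of microglia, at 31.6, 37.1, 24.8 and 33.4 TPM in p16 WT CTL and 8.83, 23.2, 12.9 and 26.2 TPM in p16 KO CTL (-0.89 ± 0.33, exact permutation p = 0.0857). Tmem119 (0.23), Fcrls (-0.92) and P2ry12 (0.24), another of the 5 higher markers, lost their calls in the 5 libraries of usual nuclear RNA content. Ctss, a lysosomal protease and one of the most abundant markers, had a log2 fold change of 0.27 ± 0.19 and was not called.

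Of these glial lists, those of astrocytes and microglia moved with the nuclear RNA content of the libraries. The 20 astrocyte markers summed to 5871, 6777 and 6613 TPM in the 3 libraries low in nuclear RNA and to 4761 to 5380 TPM in the other 5, and the 20 microglia markers to 1098, 1318 and 1215 TPM against 904 to 1006 TPM. The sums of the other glial lists did not split the libraries in this way. Mature oligodendrocyte markers summed to 2947 TPM in replicate 8, of usual nuclear RNA content, but to 1900 TPM in replicate 6, low in it. Radial glia markers reached 699.3 TPM in replicate 5 against 697 TPM in replicate 7, and precursor markers 392.9 TPM in replicate 8 against 387.9 TPM in replicate 2. In the 5 libraries of usual nuclear RNA content, the radial glia list had 8 higher genes and a median of 0.27. The astrocyte list had 9 higher genes and a median of 0.16. The precursor list then had 2 and a median of 0.19 and the mature oligodendrocyte list 2 and a median of 0.49. The microglia list had 2 higher genes, none lower, and a median of 0.03. With single libraries left out, 13 astrocyte markers were called when p16 WT CTL replicate 2 was absent and 1 when any of p16 WT CTL replicates 1, 3 and 4 or p16 KO CTL replicates 6 and 7 was. For radial glia these numbers were 8, without the same library, and 0, without p16 WT CTL replicate 1 or 4 or p16 KO CTL replicate 6. For microglia the range was 2 to 8, the lowest without p16 KO CTL replicate 7. With the nuclear RNA level as a covariate, 0 radial glia, 3 astrocyte, 2 precursor and 5 microglia genes were called. The part of the nuclear RNA content in these differences was not tested beyond these values.

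**Figure D3:**
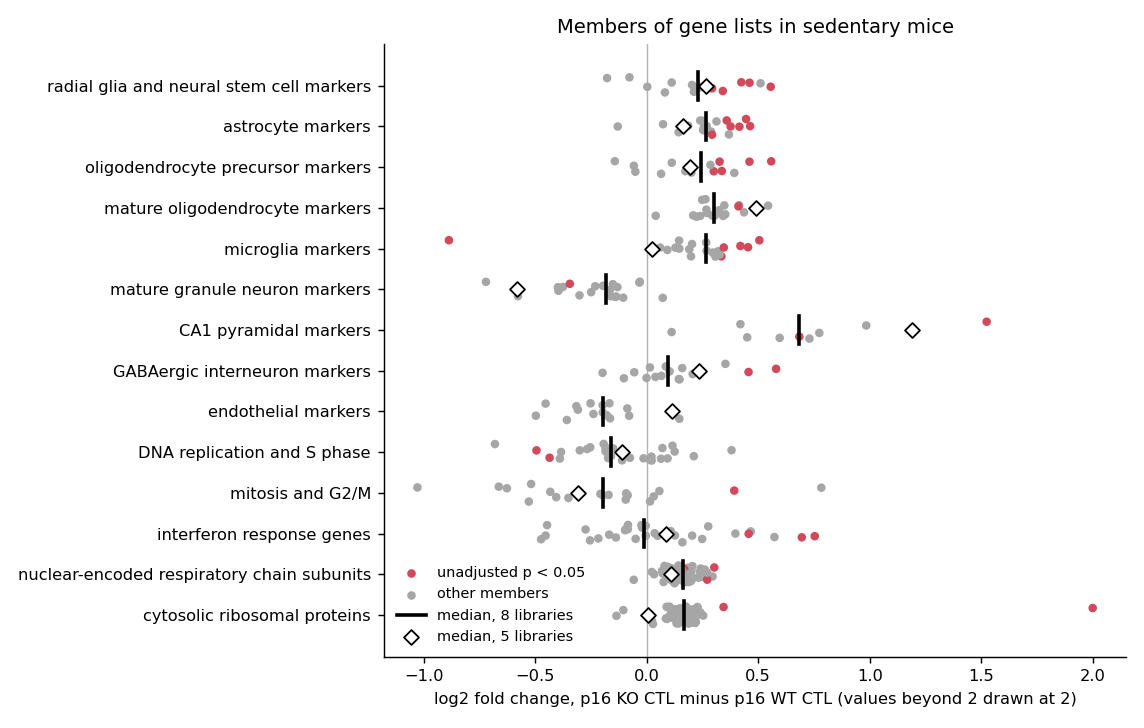
Log2 fold changes of the members of 14 gene lists, p16 KO CTL minus p16 WT CTL, with red for members with an unadjusted p under 0.05, a bar for the median over the 8 libraries and a diamond for the median in the 5 libraries of usual nuclear RNA content. The microglia median goes from 0.27 to 0.03 and the ribosomal protein median from 0.17 to 0.01, while the CA1 median goes from 0.68 to 1.19.

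Markers of mature granule neurons were mostly on the lower side and those of CA1 neurons on the higher side, with p16 KO CTL replicate 8 at the extreme of both. Calls were 5% of the granule neuron list and 22.2% of the CA1 list, beside 6.65% of all genes tested. Of 20 markers of mature granule neurons, 1 was lower and none higher, and 1 log2 fold change was positive, with a median of -0.18. The called one was Akap7, a kinase-anchoring protein of mossy fibers, at 34.2, 25.7, 35.9 and 35.4 TPM in p16 WT CTL and 27.1, 29.0, 21.9 and 21.1 TPM in p16 KO CTL (-0.35 ± 0.13, exact permutation p = 0.0571). The summed level was lowest in p16 KO CTL replicate 8 (1300 TPM), next in p16 WT CTL replicate 2 (1554 TPM) and highest in p16 WT CTL replicate 3 (3200 TPM), and the median was 0.03 without p16 KO CTL replicate 8 and -0.58 in the 5 libraries of usual nuclear RNA content. Of 9 markers of CA1 neurons, 2 were higher and all 9 positive, with a median of 0.68. Pou3f1, a transcription factor of CA1 and of myelinating cells, was at 3.98, 5.35, 4.06 and 4.01 TPM in p16 WT CTL and 13.1, 7.65, 6.38 and 33.2 TPM in p16 KO CTL (1.52 ± 0.44, exact permutation p = 0.0286). The summed CA1 level, highest in replicate 8, moves with this difference, and the median of the list was 0.21 without it.

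Of 13 markers of neuroblasts and immature neurons, 2 were higher. Calls were 15.4% of this list, 12.5% of interneuron markers and 7.69% of CA2 and CA3 markers, beside 6.65% of all genes tested. Sox4, which drives the neuronal program in newborn cells, was at 9.95, 10.6, 11.5 and 8.87 TPM in p16 WT CTL and 13.2, 13.2, 12.5 and 11.1 TPM in p16 KO CTL (0.35 ± 0.12, exact permutation p = 0.0286), and the proneural factor Neurog2 was under 1 TPM in all 8 libraries (0.83 ± 0.33, exact permutation p = 0.1143). The list's median was 0.09. Of 16 interneuron markers, 2 were higher, Pvalb (0.58 ± 0.23, exact permutation p = 0.1143) and Vip (0.46 ± 0.19, exact permutation p = 0.1143), both with overlapping groups. The calls of Sox4 (0.30), Pvalb (0.50) and Vip (0.46) were lost in the 5 libraries of usual nuclear RNA content. Among 13 markers of CA2 and CA3, Rgs14, a signalling scaffold of CA2, was higher (0.18 ± 0.06, exact permutation p = 0.0571), and none of the 9 mossy cell markers was called. Of 15 endothelial markers none was called, and their median of -0.20 became 0.11 in the 5 libraries of usual nuclear RNA content, as the summed level was lowest in replicates 2, 6 and 7 (242, 184 and 202 TPM, against 288 to 318 TPM).

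The share of genes called was 9.38% among interferon response genes, 5.26% for antigen presentation, 4.55% for chemokine and cytokine receptors, 4.55% for complement and 13.3% for the disease-associated state of microglia, beside 6.65% of all genes tested. Of 32 tested interferon response genes, 3 were higher and none lower, and the median was -0.01, equal to that of all genes and turned to 0.09 by quantile normalization. Eif2ak2, the kinase PKR that binds double-stranded RNA and stops translation, was at 4.30, 5.20, 4.55 and 4.58 TPM in p16 WT CTL and 7.83, 6.86, 9.11 and 5.72 TPM in p16 KO CTL (0.70 ± 0.17, exact permutation p = 0.0286, adjusted p = 0.624). Rsad2, the antiviral enzyme viperin, was at 0.626, 0.656, 1.04 and 0.633 TPM and 1.30, 1.36, 1.19 and 1.1 TPM (0.75 ± 0.22, exact permutation p = 0.0286). Both genes separated the groups, and Rsad2 was not called in the 5 libraries of usual nuclear RNA content (0.65). Rtp4, an interferon-induced chaperone of receptors, differed by 0.46 ± 0.19 (exact permutation p = 0.0286).

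The promoters of Eif2ak2 and Rsad2 are printed since both hold the interferon-stimulated response element, which STAT complexes bind. The motif was searched on both strands as GAAA, any 2 bases and GAAA, matches are in capitals, and no other motif searched overlaps them. Of the 24 interferon response genes with a RefSeq window 13 held it, against 3.99% of all 27025 genes with a window. The median log2 fold change was 0.16 in these 13, which include Eif2ak2 and Rsad2, and -0.05 in the other 11.
Eif2ak2, GRCm38.p6, chr17:78882523-78882822, minus strand: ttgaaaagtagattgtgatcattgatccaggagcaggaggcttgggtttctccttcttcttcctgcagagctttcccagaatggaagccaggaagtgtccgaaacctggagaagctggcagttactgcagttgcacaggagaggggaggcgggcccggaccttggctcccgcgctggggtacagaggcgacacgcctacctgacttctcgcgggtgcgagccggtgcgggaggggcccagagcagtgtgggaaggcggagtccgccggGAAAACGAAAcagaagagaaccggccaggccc
Rsad2, GRCm38.p6, chr12:26456403-26456702, minus strand: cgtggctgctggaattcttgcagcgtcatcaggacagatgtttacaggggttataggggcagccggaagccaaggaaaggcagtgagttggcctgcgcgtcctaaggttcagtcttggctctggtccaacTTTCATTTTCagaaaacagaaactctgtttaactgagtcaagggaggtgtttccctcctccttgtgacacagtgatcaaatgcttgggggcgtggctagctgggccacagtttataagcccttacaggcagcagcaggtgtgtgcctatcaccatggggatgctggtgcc

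Of 19 antigen presentation genes, H2-K1, a class I heavy chain, was higher (28.8, 30.5, 31.9 and 25.9 TPM against 32.0, 31.9, 34.5 and 34.5 TPM, 0.24 ± 0.09, exact permutation p = 0.0571), and 16 of the 19 were positive, with a median of 0.17. Of 22 tested chemokine and cytokine receptors, Ccr1 was higher, at 0.103 to 0.275 TPM in p16 WT CTL and 0.368 to 0.931 TPM in p16 KO CTL, close to the lower limit of detection (1.41 ± 0.35, exact permutation p = 0.0286). Neither H2-K1 (0.24) nor Ccr1 (0.97) was called in the 5 libraries of usual nuclear RNA content. Among 22 complement genes, only Cd59a was called. Of 15 genes of the disease-associated state of microglia, Lpl was higher and Gpnmb, a glycoprotein of lysosome-rich cells, lower (6.60 to 7.97 TPM against 3.25 to 6.95 TPM, -0.63 ± 0.23, exact permutation p = 0.1143). Of 35 genes of apoptosis and death receptors, Bad and Bcl2l2, a promoter and an inhibitor of cell death, were higher by 0.17 and 0.19, and Casp6 and Fas were lower. These 4 were 11.4% of the list, beside 6.65% of all genes tested. Of the 4, Casp6 kept its call in the 5 libraries of usual nuclear RNA content, where Bad was at 0.09 and Bcl2l2 at 0.16. Casp6, an executioner caspase, was at 5.90, 5.56, 5.39 and 5.28 TPM in p16 WT CTL and 3.76, 4.23, 2.69 and 3.97 TPM in p16 KO CTL, with no overlap (-0.54 ± 0.16, exact permutation p = 0.0286).

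Signalling lists held members on both sides, and their shares of called genes were near that of all genes. They were 7.27% for Wnt, 7.14% for BMP and 6.67% for Notch, beside 6.65% of all genes tested. Of 55 tested Wnt genes, 1 was higher and 3 were lower, with a median of 0.08. Trabd2b, the protease Tiki2 that inactivates Wnt ligands, was at 1.77, 0.916, 1.07 and 1.68 TPM in p16 WT CTL and 0.303, 0.199, 0.246 and 0.604 TPM in p16 KO CTL (-1.72 ± 0.34, exact permutation p = 0.0286). Notum, which removes the lipid of Wnt ligands, and the receptor Ror1 were the other lower ones (-0.89 ± 0.35 and -0.73 ± 0.31), and the ligand Wnt11 was the higher one but under 1 TPM. Of 28 BMP genes, the BMP inhibitor Nog and the ligand Bmp6 were higher (0.68 ± 0.23 and 0.48 ± 0.18). Bmp6 was at 4.83, 7.56, 7.63 and 5.45 TPM in p16 WT CTL and 8.29, 8.97, 9.12 and 7.36 TPM in p16 KO CTL. Of 30 Notch genes, the target Hey2 was higher (0.52 ± 0.21) and Ncstn, a subunit of gamma-secretase, lower (-0.15 ± 0.07). Notum (-0.37), Nog (0.32), Bmp6 (0.45), Hey2 (0.36) and Ncstn (-0.15) were not called in the 5 libraries of usual nuclear RNA content.

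At the synapse, 1 of 30 glutamate receptor and scaffold genes was higher and 3 were lower, with a median of -0.06. Calls were 13.3% of this list, 11.1% of GABA and glycine receptor subunits and 9.52% of immediate early genes, beside 6.65% of all genes tested. Grm8, a presynaptic metabotropic receptor, was at 4.55, 4.55, 4.55 and 5.02 TPM in p16 WT CTL and 3.36, 3.33, 3.72 and 3.13 TPM in p16 KO CTL (-0.40 ± 0.13, exact permutation p = 0.0286), and the AMPA subunit Gria3 and Grm7 were lower by less (-0.17 and -0.13). The groups of Grm8 did not overlap. The scaffold Homer2 was higher, but p16 WT CTL replicate 1 was at 4.57 TPM and the other 3 wild-type libraries at 14.2 to 14.7 TPM. Of 18 GABA and glycine receptor subunits, Gabra2 was higher (71.2 to 169 TPM against 134 to 243 TPM, 1.00 ± 0.31, exact permutation p = 0.0857) and so was Gabrg1. Gria3 (-0.10), Grm7 (-0.12), Homer2 (1.06) and Gabra2 (0.60) lost their calls in the 5 libraries of usual nuclear RNA content. Of 21 immediate early genes, Btg2 and Npas4, the activity-regulated factor of inhibitory synapses, were lower. Npas4 was at 9.48, 14.8, 9.79 and 3.12 TPM in p16 WT CTL and 2.92, 1.55, 1.14 and 6.47 TPM in p16 KO CTL (-1.64 ± 0.59, exact permutation p = 0.0571), and its log2 fold change was -0.56, not called, in the 5 libraries of usual nuclear RNA content.

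The lists of the respiratory chain and of ribosomal proteins had small differences of nearly 1 sign. In the lipid list 19 of 30 tested genes were positive, and in the transport and glycolysis list 19 of 23. Calls were 5.41% of the respiratory chain list and 2.56% of ribosomal proteins, both below the 6.65% of all genes tested. They were 13.3% of the lipid list and 4.35% of the transport and glycolysis list. Of 74 nuclear-encoded subunits of the respiratory chain, 73 were positive, with a median of 0.16, and 4 were called, all higher (Ndufa2, Ndufa7, Atp5g3 and Cox4i1, by 0.17 to 0.30). Of 78 cytosolic ribosomal proteins, 76 were positive, with a median of 0.17, and 2 were called, both higher, of which Rps27 was listed at 13.3 and 16.1 TPM in p16 WT CTL replicates 2 and 3 and at 755 to 1035 TPM in the other 6 libraries. Ribosomal protein transcripts summed to 69330 and 65080 TPM in p16 KO CTL replicates 6 and 7, to 58010 TPM in p16 WT CTL replicate 2 and to 52590 to 55280 TPM in the other 5, so that they too moved with the nuclear RNA content, and in those 5 libraries the median was 0.01 for ribosomal proteins and 0.11 for the respiratory chain, while Ndufa7 (0.15) and Rps27 (1.90) were not called. For the respiratory chain, 0 genes were called when p16 WT CTL replicate 3 was left out and 41 when replicate 2 was. The medians also depended on the scaling: quantile normalization gave 0.09 for the respiratory chain and 0.06 for ribosomal proteins. It gave -0.01 instead of 0.08 for transport and glycolysis, and 0.09 instead of 0.08 for the lipid list. Of 30 tested genes of lipoprotein uptake and lipid metabolism, Lpl, the lipid carrier Apod (0.80 ± 0.28, exact permutation p = 0.0857) and the desaturase Scd1 were higher and Lpin2 was lower, the last not called in the 5 libraries of usual nuclear RNA content (-0.11). In the list of transport and glycolysis, Slc16a1 was the only one of 23 called.

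Smaller lists gave few calls. They were 15% of N-glycosylation, 6.67% of heat shock, 6.25% of integrated stress response and 5.56% of choroid plexus and ependyma genes, beside 6.65% of all genes tested. Of 20 genes of N-glycosylation, Magt1 was higher and 2 mannosyl- and glucosyltransferases were lower, Alg1 (22.97 to 29.9 TPM against 16.8 to 20.2 TPM, -0.46 ± 0.11, exact permutation p = 0.0286) and Alg6 (-0.50), which was not called in the 5 libraries of usual nuclear RNA content (-0.22). Of 15 heat shock genes the cochaperone Bag3 was higher (0.45 ± 0.15), and Eif2ak2 was the only one called of 16 genes of the integrated stress response. In the choroid plexus and ependyma list of 18 tested, the adipokine chemerin, Rarres2, was the one called gene, at 3.41, 7.23, 5.86 and 9.99 TPM in p16 WT CTL and 13.0, 17.0, 11.2 and 12.6 TPM in p16 KO CTL (1.16 ± 0.29, exact permutation p = 0.0286). It did not follow Ttr, the defining choroid plexus transcript, which was at 190.8 TPM in p16 KO CTL replicate 7 and 8.04 to 33.3 TPM in the other libraries. No gene was called among 12 glucocorticoid receptors and response genes, 10 markers of pericytes and smooth muscle, 12 of meninges and fibroblasts, 8 of thalamus and habenula and 5 of erythroid cells. In the hemoglobin genes, Hbb-bs was at 4.397 and 8.07 TPM in p16 KO CTL replicates 5 and 8 and Hbb-b1 at 297 and 319 TPM, whereas Hbb-b1 stayed under 1 TPM in the other 6 libraries. These genes are near-identical copies between which the same reads can be assigned, and summed beta globin was 219 to 612 TPM in p16 WT CTL and 227 to 446 TPM in p16 KO CTL.

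The null allele lies on chromosome 4, and DNA around it that came with it from FVB is confounded with the genotype. Of the 260 genes tested within 30 Mb of Cdkn2a, 32 (12.3%) were called, 11 higher and 21 lower, and within 10 Mb 7 of 56 (12.5%), against 6.65% of all genes. Within 5 Mb, 1 of 22 genes was called, Tusc1, at 4.06 Mb. In the 5 libraries of usual nuclear RNA content the shares were 8.46% within 30 Mb and 5.36% within 10 Mb, against 6.67% of all genes, above it in the wider window and below it in the narrower one. With 1 library left out, 17 to 58 genes within 30 Mb were called, the fewest without p16 WT CTL replicate 1 and the most without replicate 2. Chromosome 4 as a whole had 89 of 1058 genes called (8.41%), and chromosome 8 had a higher share (10.1%, 90 of 892). Of the called genes named here, Alg6 and Ror1 lay 10.44 and 10.82 Mb from Cdkn2a, with log2 fold changes of -0.50 and -0.73 in sedentary and -0.11 and -0.29 in running mice. Ipp, which encodes a kelch protein that binds actin (13.3 to 17.7 TPM and 19.6 to 21.1 TPM), Hpdl, Hyi and Trabd2b lay 25.13 to 29.09 Mb from it. In running mice, 28 of the 32 genes had the same sign, where 59.6% of all 1151 called genes did. Of the 260 genes, 6 (2.31%) were called there, where 3.87% of all genes were. The effect of FVB sequence on these genes and that of p16 loss cannot be told apart.

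**Figure D4:**
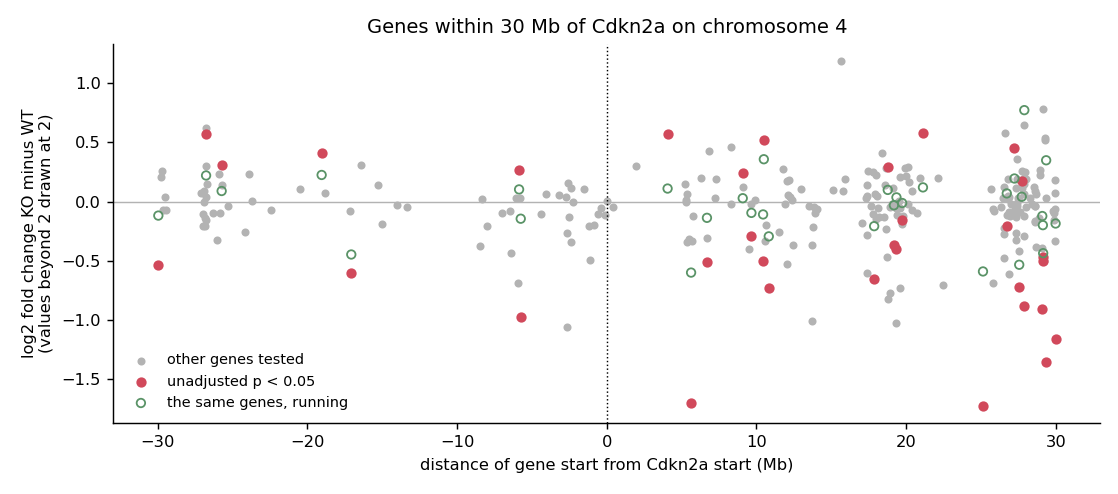
Log2 fold change of each gene tested within 30 Mb of Cdkn2a against its distance from the Cdkn2a start in Mb, with red for the 32 genes with an unadjusted p under 0.05 in sedentary mice and open green circles for the same genes in running mice. Within 5 Mb 1 gene is red and within 10 Mb 7 are.

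The running libraries, which share no sample with the sedentary ones, were then used to look at the same genes. Of the 1151 genes called in sedentary mice, 686 (59.6%) had the same sign in p16 KO RUN against p16 WT RUN, and 44 were called there in the same direction. For the 529 higher genes these were 335 and 25 (4.73%, where 2.1% of all genes were higher in running knockouts), and for the 622 lower genes 351 and 19 (3.05%, against 1.77%). The median log2 fold change of the higher genes was 0.34 in sedentary and 0.04 in running mice, and that of the lower genes -0.64 and -0.03. Since the genes were chosen on the sedentary values, a smaller value in running mice goes with that choice and was not read as an effect of running.

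Of the list members, those called in both settings with the same sign included Rarres2, Sox4, Bmp6, H2-K1, Gpr17 and P2ry12, which were picked out after their values were seen. Rarres2 was at 7.15, 11.8, 6.18 and 10.1 TPM in p16 WT RUN and 12.5, 14.7, 12.3 and 13.7 TPM in p16 KO RUN (0.64 ± 0.20, SE, called by limma). Bmp6, a signal that keeps stem cells at rest, was at 5.44, 8.07, 5.34 and 8.04 TPM in p16 WT RUN and 8.87, 10.9, 7.88 and 11.4 TPM in p16 KO RUN (0.55 ± 0.19). H2-K1 was at 28.9, 27.4, 31.8 and 31.9 TPM and 34.99, 36.9, 33.7 and 32.6 TPM (0.21 ± 0.07). Rarres2 and H2-K1 separated the running groups, while in Bmp6 1 knockout library lay within the wild-type range. For Sox4 the log2 fold change in running mice was 0.28 ± 0.11.

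Of the 24 genes named by rank, 18 had the same sign in running mice, 9 of the 12 higher and 9 of the 12 lower, all 24 were closer to 0 there, and 1, Snord89, was called (-0.75 ± 0.29). The interaction had an unadjusted p under 0.05 in 11 of the 24, where this was so in 5.47% of all genes, but the 24 were chosen on sedentary values that enter it, so nothing was read from the count. Among the 11 were Dynll2 (0.38 ± 0.09 in sedentary and -0.14 in running mice) and Tmed5 (0.40 ± 0.09 and -0.09). For Lpl, Cd59a, Hpdl, Ntsr2 and Ipp the interaction was not called, and their running log2 fold changes were 0.36 ± 0.36, 0.37 ± 0.30, -0.53 ± 0.25, 0.18 ± 0.11 and 0.19 ± 0.13. All of these genes were split within p16 WT RUN as described next, which enters both the fold changes and their errors. The p16 WT RUN group was split in most of the 24. Its replicates 10 and 12 both differed from replicates 9 and 11 in the direction of the sedentary knockouts. Rrbp1, Pcdh9, Dynll2, Egfl6, Tmed5 and Gm10037 were the exceptions. In replicates 9 to 12, Tpd52l1 was at 66.4, 39.6, 70.9 and 32.3 TPM, Hyi at 11.4, 6.67, 12.9 and 5.17 TPM and Rec8 at 2.79, 0.808, 2.76 and 0.0568 TPM. Ntsr2 was at 135, 176, 137 and 181 TPM, Lpl at 52.6, 78.2, 27.4 and 107 TPM and Hpdl at 14.9, 8.45, 12.9 and 6.56 TPM. In Tpd52l1, Hyi and Rec8, replicates 10 and 12 lay within the range of p16 KO CTL. The genes with values here were picked out after these were seen. Dynll2 was at 655 to 692 TPM, and the cause of the split was not tested.

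**Figure D5:**
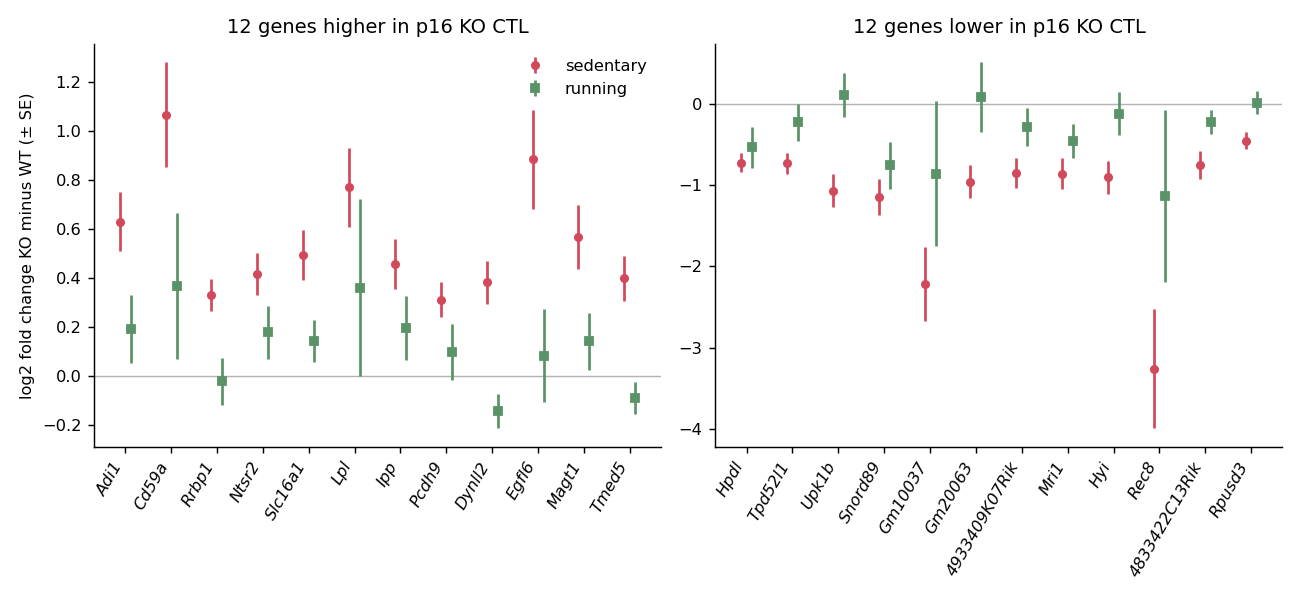
Log2 fold change of the 24 genes named by rank, knockout minus wild type with its standard error, in the 8 sedentary libraries (red circles) and the 8 running libraries (green squares). The running values lie closer to 0 in all 24 genes, and Dynll2 goes from 0.38 to -0.14.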

How the data were processed

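The groups were taken from the labels. Per the paper's methods and the submitters' processing notes, the authors demultiplexed with bcl2fastq 2.20, masked adapters with Cutadapt 1.11, trimmed with ERNE, aligned to mm10 with STAR and computed abundances with StringTie (the last 3 with versions not given in the sources used here). The TPM values deposited are StringTie abundances per gene, with equal library totals. The FPKM values deposited come from the same run, and the coverage values deposited are mean coverage per base, used only for depth. The tables hold no read counts, so counting error is not known, and whether strand was used is not stated. Replicates were separate pools of mice.

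Values were summed per gene name (24421 names). Each library was scaled by its median ratio to the geometric mean of the 16, taken over the 13226 genes that reached 1 TPM in every one. A mean of 0.1 TPM or more over 16 libraries was required, and 17317 genes were tested on log2(scaled TPM + 0.1), which understates changes of low genes, with limma 3.58.1 in R 4.3.3 (variance trend, Benjamini-Hochberg adjustment over all genes), on the 8 sedentary libraries, or on all 16 for the interaction. Levels are TPM as deposited. For single genes, a two-sided exact permutation test was added, on the same scaled log2 values. Alternatives were other scalings, pseudocounts, filters and covariates, FPKM, all 16 libraries in 1 fit, and each library left out. Named genes were Cdkn2a, Cdkn2b, the 12 higher and 12 lower genes of smallest p with at least 1 TPM and no overlap, and up to 4 called and 3 most abundant members of each of the 45 lists. A list and a few single genes are not reported here. The comparison, the lists and the members were chosen with earlier results of these data known. The procedure was tested on simulated data.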

Additional observations from a re-analysis of the deposited data

Results flagged for a closer look

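In a group of 4 libraries, a library was singled out when its gap to the nearest other exceeded Dixon's limit for 4 values, which chance gives in about 1 of 20 groups. Cd59a stood apart in p16 WT CTL replicate 2 (3.44 TPM) and in p16 KO CTL replicate 7 (14.2 TPM), both on the outer side of the difference, and both libraries were low in nuclear RNA. Tmed5 stood apart in p16 KO CTL replicate 7 (29.3 TPM), and Hpdl in p16 WT CTL replicate 2 (7.23 TPM). Gm10037 (4.48 TPM) and Rec8 (1.02 TPM) stood apart in p16 KO CTL replicate 8, toward the wild type. Cdkn2a did so in p16 WT CTL replicate 2 (0.586 TPM), where it was above both 0 and the other libraries of the group, and Cdkn2b in p16 WT CTL replicate 4 (0.855 TPM).

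The knockout effect differed between running and sedentary mice, by the limma interaction at an unadjusted p under 0.05, in 11 of the 24 genes named by rank. Running minus sedentary, the difference on the log2 scale was -0.44 for Adi1, -0.35 for Rrbp1, -0.35 for Slc16a1, -0.53 for Dynll2, -0.80 for Egfl6, -0.43 for Magt1 and -0.49 for Tmed5, and 1.18 for Upk1b, 0.78 for Hyi, 0.53 for 4833422C13Rik and 0.47 for Rpusd3. The genes were chosen on the sedentary values that enter this difference, and none had an adjusted p under 0.05 for it.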

How the results depend on the processing

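Of the 24 genes named by rank, all kept their direction and an unadjusted p under 0.05 under each alternative that could be run for them, with the exception of Rec8 without the 3 libraries low in nuclear RNA (chosen after seeing the data). These fits used the libraries on which the 24 were chosen. Cdkn2a and Cdkn2b, with log2 fold changes of 0.01 and 0.00, had no stable sign: Cdkn2a was at -0.0268 when the pseudocount was 1, -0.0127 for unscaled TPM, -0.0273 for FPKM, -0.49 with the nuclear RNA score as a covariate and from -0.43 to 0.64 with 1 library left out, and Cdkn2b at -0.0015 when the pseudocount was 0.01, -0.0525 for unscaled TPM and from -0.16 to 0.14 with 1 library left out. The count of 1151 genes (529 higher, 622 lower) became 2208 (942 and 1266) with all 16 libraries in one fit and 731 (342 and 389) with the nuclear RNA score as a covariate, and with TPM as deposited 336 were higher. With 1 library left out it was lowest, at 555 (242 higher, 313 lower), without p16 KO CTL replicate 7, was highest, at 3029 (1304 and 1725), without p16 WT CTL replicate 2, and was 606, 714 and 732 without p16 WT CTL replicates 1, 3 and 4 and 2331 and 678 without p16 KO CTL replicates 5 and 6. At an adjusted p under 0.05, 0 genes became 2 with no filter on abundance and 2 without the variance trend (BC048644 and Cd79a in both), 1 without the 3 libraries (Hbb-b1), and 0 to 6 with 1 library left out, 6 without p16 KO CTL replicate 8. The interaction count of 947 was 612 without p16 WT CTL replicate 3, 2378 without replicate 2 of that group and 1972 without p16 KO CTL replicate 5. The causes were not tested. With windows of 5 and 30 Mb, 1 and 32 genes near Cdkn2a were called instead of 7. No paired analysis was possible because the numbers 1 to 16 each name a single library. With 4 pools per group and no read counts, differences of genes under 1 TPM cannot be set against counting error.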

Other observations

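Values outside the comparisons above bear on the 44 genes called in the same direction in sedentary and in running mice, which were looked at after the results were known. Tmsb10, a thymosin that binds actin in growing neurons, had a mean of 207 TPM in p16 WT CTL and 248 TPM in p16 KO CTL, and of 210 TPM in p16 WT RUN and 269 TPM in p16 KO RUN, with log2 fold changes of 0.32 and 0.38. Mdk, the growth factor midkine, had 23.1 and 29.2 TPM in sedentary and 22.8 and 26.4 TPM in running mice. Apoc1, an apolipoprotein of glia, had 3.48 and 5.83 TPM, then 2.88 and 4.59 TPM. Cox6a2, the muscle type subunit of cytochrome oxidase, had 6.76 and 3.57 TPM, then 7.19 and 3.13 TPM, but was no longer called without the 3 libraries low in nuclear RNA. Pbk, a mitotic kinase, was under 1 TPM in all 4 groups by its mean, at 0.0884 and 0.355 TPM in sedentary and 0.119 and 0.802 TPM in running mice.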
